A study of Mus musculus with 28 samples.

Results

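The H3K4me3 peaks described here were those that lay away from protein-coding promoters and carried neither H3K27Ac nor H3K9me3 in WT mouse embryonic stem cells (mESCs). They were selected on measured values, from peaks called in both WT H3K4me3 libraries: autosomal, under 5000 bp wide, more than 1000 bp from the transcription start site (TSS) of any protein-coding gene, and sharing no base with a WT H3K27Ac or WT H3K9me3 peak. Of 34823 WT H3K4me3 peaks, 33695 were autosomal, 17748 were also narrow enough and distal, 14635 of these lacked H3K27Ac, and 11955 (34.3% of the list) lacked H3K9me3 as well. These 11955 peaks are called distal H3K4me3-only peaks from here on. Set beside them were other narrow autosomal WT peaks without H3K9me3, namely the 2922 distal peaks that did share a base with H3K27Ac and the 11308 peaks within 1000 bp of a coding TSS that had no H3K27Ac.

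The cells were HATX mESCs, a haploid line of mixed genomic background that carries a doxycycline-inducible Xist transgene, grown in serum with LIF. WT cells were compared with clone 2 of the Spen KO, which is 1 clone with a full deletion of Spen on the same HATX background, so clone and genotype cannot be told apart. H3K4me3, H3K27Ac, H3K9me3 and Oct4 were profiled by ChIP-seq with 2 libraries per mark and genotype (16 ChIP and 12 input libraries in all), which the study treats as technical replicates. The histone marks came as 1 peak list per genotype and Oct4 as 1 list per library. The lists hold no read counts, so the depth is unknown. Intervals given below are 95% intervals over peaks that cover counting error only. They are Wilson intervals for shares and Newcombe intervals for differences. A difference weighted by class of H3K4me3 score has an interval combined over the classes instead. All 8 markers of embryonic stem cells examined, among them Pou5f1, Nanog and Sox2, had H3K4me3 and H3K27Ac within 1000 bp of a TSS in WT cells. Of 14 markers of other cell types, 11 had H3K4me3 and 0 had H3K27Ac there.

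H3K4me3 is deposited mainly around active and poised promoters, and CpG-rich DNA attracts the enzymes that write it. H3K27Ac marks active promoters and enhancers, and H3K9me3 marks silenced chromatin, repeats included. An H3K4me3 peak far from any coding promoter and without acetylation can be the start of a noncoding gene, a transfer RNA gene, a repeat copy with its own promoter, an exon rich in CpG, or a weakly marked enhancer. Oct4, encoded by Pou5f1, is a core pluripotency factor that binds an octamer sequence, usually at enhancers.

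Sequences from some of these peaks are shown first, as examples of how much they differed in their DNA. No sequence feature examined was common to the set, and most of the peaks hold none of the sequences shown. The first lines give the 150 bp at the centre of 4 of the 6 peaks of highest score, and of a peak that was absent from the Spen KO list, with CpG dinucleotides in capitals (mm9, plus strand).
Baz2b intron, chr2:59948361-59948510: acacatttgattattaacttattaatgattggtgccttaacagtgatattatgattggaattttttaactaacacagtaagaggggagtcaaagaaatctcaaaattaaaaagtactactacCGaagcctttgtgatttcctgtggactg
Chromosome 6 stretch, chr6:47703228-47703377: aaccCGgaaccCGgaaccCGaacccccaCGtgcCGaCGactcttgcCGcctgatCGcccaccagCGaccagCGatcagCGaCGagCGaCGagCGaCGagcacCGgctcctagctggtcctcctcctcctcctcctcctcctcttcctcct
Chromosome 6 stretch, chr6:47722416-47722565: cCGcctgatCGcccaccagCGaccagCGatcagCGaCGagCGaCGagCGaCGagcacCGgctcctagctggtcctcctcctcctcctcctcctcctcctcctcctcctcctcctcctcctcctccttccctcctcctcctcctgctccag
Near Gm13169, chr4:146207133-146207282: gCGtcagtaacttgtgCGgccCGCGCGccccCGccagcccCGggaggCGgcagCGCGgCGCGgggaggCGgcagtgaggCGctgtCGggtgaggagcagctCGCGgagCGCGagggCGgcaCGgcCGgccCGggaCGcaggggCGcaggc
Absent from Spen KO, chr3:27640198-27640347: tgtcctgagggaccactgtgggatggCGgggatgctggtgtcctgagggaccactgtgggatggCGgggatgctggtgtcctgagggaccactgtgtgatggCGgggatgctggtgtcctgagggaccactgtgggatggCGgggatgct
The Baz2b window, from the peak of highest score, held 1 CpG. The chromosome 6 windows held 17 and 11, that near Gm13169 held 25 and that on chromosome 3 held 4. The centres of the other peaks among the 6, chr6:47708542-47708691 and chr17:32966294-32966443, held 2 CpGs each. The 150 bp centres of the 6 strongest peaks thus differed widely in CpG count. Such a short window can differ from the wider peak. Over its central 1000 bp the Baz2b peak had 50.6% GC and a ratio of observed to expected CpG of 0.69, which counts as CpG-rich by the rule used below. The chromosome 6 windows share a run rich in CGA, and the window on chromosome 3 repeats 1 unit in tandem.

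Other peaks shared a recurrent sequence around the YY1 motif, GCCATNTTG, in capitals in the following lines, each at the strongest of the peaks that contained it (N is any base, and both strands were searched).
Run 1, chr12:43846288-43846317, minus strand: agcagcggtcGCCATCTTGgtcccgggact
Run 2, chr12:43846924-43846953, minus strand: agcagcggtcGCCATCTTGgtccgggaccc
Run 3, chr4:53681912-53681941, plus strand: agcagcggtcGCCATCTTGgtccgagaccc
Run 4, chr3:106088094-106088123, plus strand: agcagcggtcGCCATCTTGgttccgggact
Run 1 occurred in the central 1000 bp of 384 distal H3K4me3-only peaks, run 2 in 305, run 3 in 160 and run 4 in 143. Across all autosomal WT H3K4me3 peaks they occurred in 1277, 1283, 677 and 353, so most copies carrying an H3K4me3 peak failed the selection, in most cases because they lay in WT H3K9me3.

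Another group held matches to letter patterns for the A box and B box of transfer RNA genes, the internal promoter read by RNA polymerase III. The matches are in capitals in the lines that follow. Whether a match lies in a transfer RNA gene or in another sequence with the same letters was not tested.
Pair 1, chr1:167571772-167571825, plus strand: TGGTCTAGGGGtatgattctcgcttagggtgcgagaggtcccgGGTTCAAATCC
Pair 2, chr3:96304943-96304996, minus strand: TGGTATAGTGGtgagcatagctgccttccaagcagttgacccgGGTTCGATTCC
Pair 3, chr13:23529989-23530044, minus strand: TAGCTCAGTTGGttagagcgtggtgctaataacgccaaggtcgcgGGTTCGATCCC
Pair 4, chr11:68854493-68854546, plus strand: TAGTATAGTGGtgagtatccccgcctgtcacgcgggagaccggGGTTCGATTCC
Pairs 1, 2 and 3 were each found in 4 distal H3K4me3-only peaks and pair 4 in 3.

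The distal H3K4me3-only peaks were weak and narrow for H3K4me3. Ranked by the mean of the 2 library scores among all WT H3K4me3 peaks, their median stood at the 28.9th percentile (quartiles 13.4 and 47.2), next to 28.2 for distal peaks with H3K27Ac and 69.6 for promoter peaks without it. Their median score was 15.2 in WT replicate 1 and 15.2 in WT replicate 2, and the scores of the libraries correlated across these peaks with a Spearman coefficient of 0.703, a description only, since peaks of 1 cell line are not replicates. The median width was 952 bp, against 1222 bp for distal peaks with H3K27Ac and 2104 bp for the promoter peaks. When the WT list was divided into 5 equal classes of score, 4289 of the distal H3K4me3-only peaks fell in the weakest class and 362 in the strongest. The widths closest to the 5000 bp limit were 4971 and 4942 bp inside it and 5046 and 5049 bp outside it, and the distances closest to the 1000 bp limit were 1001 and 1002 bp inside and 1000 bp for each of the nearest 2 peaks outside.

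**Figure D1:**
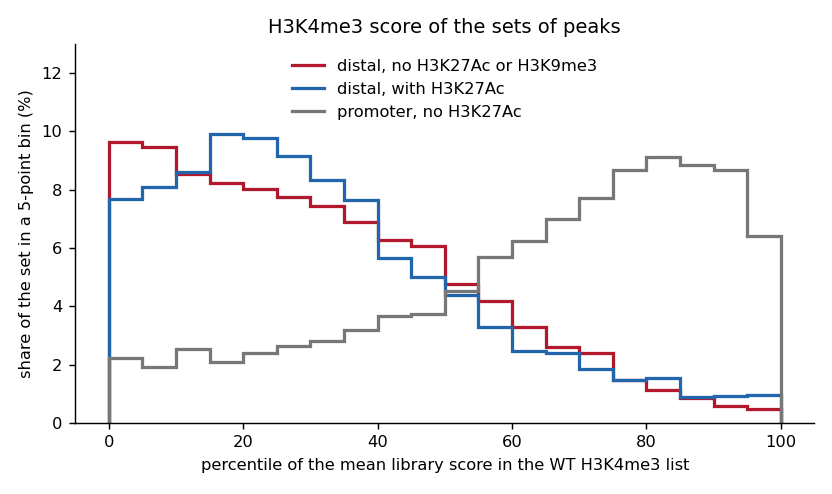
Share of each set of WT H3K4me3 peaks (y axis, percent) in bins of 5 percentile points of the mean WT library score (x axis). The distal H3K4me3-only peaks (red) and distal peaks with H3K27Ac (blue) pile up at low scores, with medians at 28.9 and 28.2, while promoter peaks without H3K27Ac (grey) have their median at 69.6.

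By position, 55.4% (54.5 to 56.3%) of the distal H3K4me3-only peaks shared a base with a protein-coding gene body, as did 54.5% of distal peaks with H3K27Ac. The difference of 0.925 points had an interval of -1.08 to 2.94 points and therefore was not detected. Within genes the sets did differ. An exon was overlapped by 24.9% of the distal H3K4me3-only peaks and by 14.0% of the distal peaks with H3K27Ac, a difference of 10.9 points (9.36 to 12.3) with the same sign on 19 of 19 autosomes. Peaks that lay in introns alone made up 30.5% and 40.5%. Along the gene body, 26.3% of the 6624 genic H3K4me3-only peaks had their centre in the last 20% of the gene and 23.5% in the first 20%, whereas the 1592 genic peaks with H3K27Ac had 18.7% in the last 20% and 24.6% in the first 20%.

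The median distance to the nearest coding TSS was 12.1 kb, with 28.7% of the distal H3K4me3-only peaks within 5 kb and 18.7% beyond 50 kb. Distal peaks with H3K27Ac were beyond 50 kb in 12.5% of cases. A promoter H3K4me3 peak ended within 2 kb of 17.4% of the distal H3K4me3-only peaks and of 16.2% of the distal peaks with H3K27Ac, a difference of 1.22 points (-0.316 to 2.68). In the Spen KO list 7054 of the 11955 had an overlapping peak, and this peak itself reached a coding promoter in 152 cases, or 1.27% of the 11955. Few were therefore joined to a promoter peak in the other genotype. The 4901 with no Spen KO peak could not be joined and lower this percentage.

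Starts of annotated noncoding genes accounted for a small share. A noncoding transcript began within 1000 bp of 739 of the 11955 peaks, or 6.18% (5.76 to 6.63%), against 7.87% of distal peaks with H3K27Ac and 7.87% of the whole WT list. Pseudogene starts were more frequent at distal H3K4me3-only peaks than at distal peaks with H3K27Ac, at 1.84% against 0.548%, a difference of 1.29 points (0.884 to 1.62). LincRNA starts were less frequent, at 1.82% against 3.05% (difference -1.23 points, -1.95 to -0.612), as were processed transcripts at 1.53% against 2.33% and snoRNA genes at 0.167% against 0.787%. Starts of miRNA genes were near 0.669% of the peaks and 0.890% of those with H3K27Ac, a difference whose interval (-0.652 to 0.105) included 0. Peaks at a noncoding start were stronger than the rest, with medians at percentiles 42.2 and 28.1, and the share at a noncoding start was 3.61% in the weakest score class and 15.2% in the strongest.

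The strongest of the peaks at the start of a long noncoding gene was that of 3110053B16Rik at chr12:20924621-20927899, 17.9 kb from the TSS of Zfp125. It scored 68.5 and 81.0 in the WT libraries and 47.4 and 47.0 in the Spen KO libraries. The peak at the lincRNA Gm12915, chr4:124428019-124430194, overlapping an exon of Inpp5b, scored 72.9 and 62.9 in WT, against 37.2 and 17.0 in Spen KO. The peak at Spcs3, a gene this annotation lists as a processed transcript, scored 66.7 and 58.2 in WT, against 56.6 and 55.6 in Spen KO. That at 5830428H23Rik scored 65.1 and 58.2 in WT, against 41.0 and 29.6 in Spen KO. In each of these 4 regions both WT scores lay above both Spen KO scores. The regions were named for their high WT scores, which alone favours that order, and the score scale of each list depends on its own libraries: over all WT peaks that were found again, the median library scores were 29.2 and 29.2 in WT, against 28.8 and 20.6 in Spen KO.

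Among genes of interest in mESCs, 11 of 21 autosomal pluripotency genes examined had a distal H3K4me3-only peak in the gene or within 10 kb, as did 13 of 19 early lineage regulators and 7 of 18 noncoding RNA genes. Over all 21418 autosomal protein-coding genes the share was 32.0%. Genes differ in length and in their neighbours, and no test was made. Of the peaks at each list, 9 of 21 at pluripotency genes, 16 of 33 at lineage regulators and 4 of 12 at noncoding RNA genes were absent from the Spen KO list, beside 41.0% of all distal H3K4me3-only peaks and 23.2% of all WT H3K4me3 peaks. Tet1, which encodes a 5-methylcytosine dioxygenase, held 4 such peaks within its body, 2 of them absent from the Spen KO list. Zfp42, the Rex1 gene, held 2 and Sox2 had 3 within 10 kb, and none of these was absent. Of the lineage regulators, Eomes, a T-box gene of the primitive streak, had 6, of which 4 were absent from Spen KO, and Pax6, a neural and eye regulator, had 3, all absent. The 3 peaks near Otx2, an anterior homeobox gene, and the 4 near the long noncoding RNA gene Miat were all found again.

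CpG content set these peaks between the other sets. The median ratio of observed to expected CpG in the central 1000 bp was 0.374 (quartiles 0.272 and 0.488), against 0.250 in distal peaks with H3K27Ac and 0.578 in promoter peaks without it. The median GC content was 53.0%, 49.9% and 57.3% in the same order. A window counted as CpG-rich had at least 50% GC and a ratio of at least 0.6, and 1246 of the distal H3K4me3-only peaks (10.4%) met both, against 3.94% of distal peaks with H3K27Ac, a difference of 6.49 points (5.55 to 7.34) seen on 19 of 19 autosomes. The CpG-rich share rose from 1.38% in the weakest score class to 59.4% in the strongest, a description, since the score was used to rank the peaks. At matched score the difference between the distal sets was present in each class, for example 33.7% against 17.6% in the fourth class and 59.4% against 23.0% in the fifth.

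**Figure D2:**
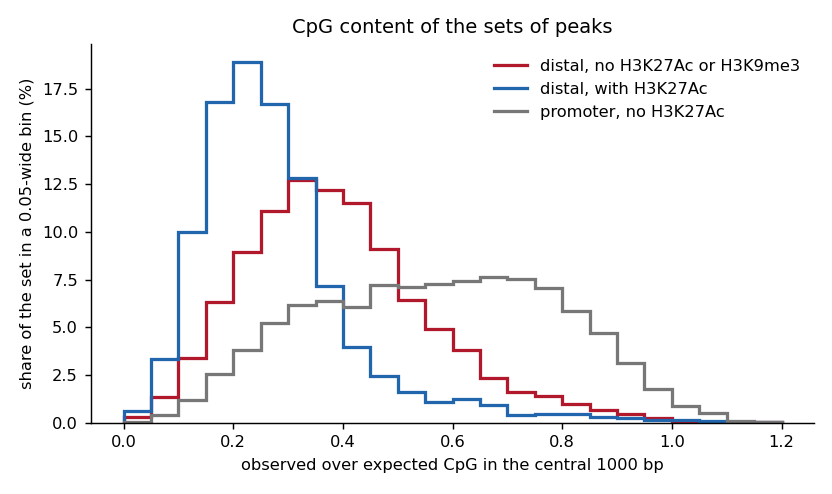
Share of each set of WT H3K4me3 peaks (y axis, percent) by the ratio of observed to expected CpG in the central 1000 bp (x axis, bins of 0.05). The distal H3K4me3-only peaks (red, median 0.374) lie between distal peaks with H3K27Ac (blue, median 0.250) and promoter peaks without H3K27Ac (grey, median 0.578), with a tail to the right.

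The motif shares followed the same order only in part. The YY1 motif GCCATNTTG was in 9.58% of distal H3K4me3-only peaks, 5.10% of distal peaks with H3K27Ac, 3.81% of promoter peaks and 11.3% of all autosomal WT H3K4me3 peaks. The motif AGNGGGCGC, from the CTCF site, was in 4.48%, 2.02%, 9.55% and 5.96%. The NRF1 motif GCGCATGCG was in 1.18%, 0.616%, 1.70% and 1.39%, and the octamer ATGCAAAT in 3.63%, 4.69%, 2.80% and 3.24%. The NRF1 and octamer letters share ATGC, and the NRF1 and CTCF letters share GCGC. A match is a description of the sequence and not a binding site.

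Part of the set consisted of repeated sequence. A peak was counted as multi-copy if at least 50% of its 31-base words also occurred in another WT H3K4me3 peak. By this count 1137 of the 11955 peaks (9.51%) were multi-copy, against 2.36% of distal peaks with H3K27Ac and 11.6% of all autosomal WT H3K4me3 peaks, those in H3K9me3 included. Among these 1137 the YY1 motif was found in 64.8%, compared with 3.77% of the remaining 10818. The 737 multi-copy peaks with a YY1 motif lay far from genes, with a median of 134 kb to the nearest coding TSS, and were of middling score, with a median at percentile 50.1. The study's methods describe 2 kinds of alignment, uniquely mapped pairs and a later one that placed repeat reads at random. Which of them a given list came from is not stated, and the place of such a peak among its copies is therefore less certain.

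The share of WT peaks absent from the Spen KO list is the first comparison between genotypes. A distal H3K4me3-only peak had no base in common with any Spen KO H3K4me3 peak in 4901 of 11955 cases, or 41.0% (40.1 to 41.9%), where 23.2% of all WT H3K4me3 peaks did so. The share was 37.4% in distal peaks with H3K27Ac, a difference of 3.62 points (1.65 to 5.57) that was positive on 13 of 19 autosomes, and 11.6% in promoter peaks without H3K27Ac, a difference of 29.4 points (28.3 to 30.4). There is 1 list per genotype, so no test over libraries was possible, and the Spen KO list is also shorter, with 31091 peaks.

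Most of this followed the score of the WT peak. In the weakest class 70.5% of the distal H3K4me3-only peaks were absent, in the second 44.2%, in the third 10.8%, in the fourth 0.945% and in the strongest 0.276%, which was 1 of 362 peaks. At matched score the distal peaks with H3K27Ac were absent less often in the first class (62.3%, difference 8.23 points, 4.97 to 11.6) and in the second (37.9%, 6.27 points, 2.85 to 9.62). In the third class the sign turned (13.8%, -2.99 points, -6.38 to -0.0372). Against promoter peaks of the same class the difference was -1.34 points (-4.38 to 1.84) in the first class, 5.77 in the second and 5.47 in the third, so that the large gap of 29.4 points shrank to 2.47 points (0.968 to 3.98) when the class differences were weighted by the number of distal H3K4me3-only peaks in each class, a comparison added after the data were seen. With the same weighting the excess over distal peaks with H3K27Ac was 4.05 points (2.34 to 5.76). It became 0.372 points (-1.72 to 2.42) with lists of equal length and -2.29 points (-4.39 to -0.694) in the stronger 50% of the list.

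**Figure D3:**
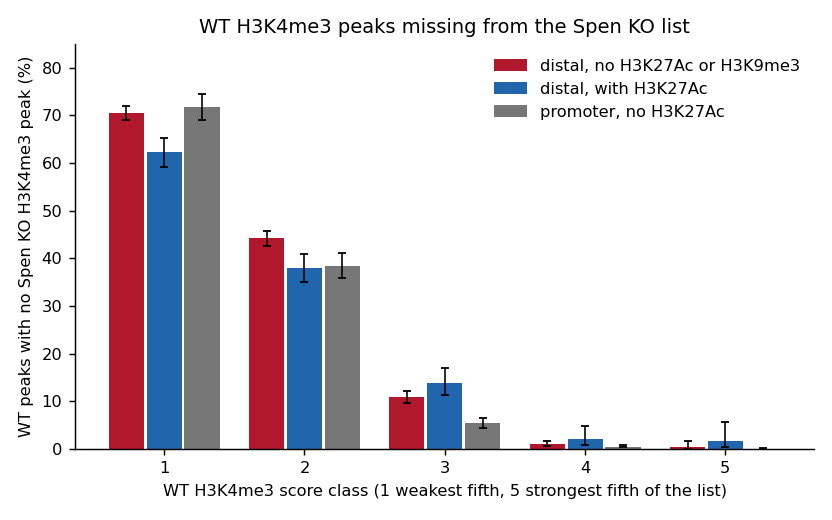
Share of WT H3K4me3 peaks that shared no base with a Spen KO H3K4me3 peak (y axis, percent) in 5 classes of WT score (x axis), for distal H3K4me3-only peaks (red), distal peaks with H3K27Ac (blue) and promoter peaks without H3K27Ac (grey). Bars are shares and error bars 95% Wilson intervals, and in each set the share falls from over 60% in the weakest class to under 3% in the 2 strongest.

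Within the distal H3K4me3-only peaks, the absent share also varied with location inside a score class. In the weakest class 76.4% of the peaks within 2 kb of a promoter H3K4me3 peak were absent, against 68.6% of the others, and in the second class 51.8% against 42.7%. Exonic peaks were absent in 37.7% and peaks outside coding genes in 47.3% of cases in the second class. CpG-rich peaks, which were mostly strong, were absent in 11.3% of cases in all. Within the second class they were absent in 36.6% (30.0 to 43.8%) against 44.6% (43.0 to 46.3%) of the others. These intervals overlap at their ends, which does not decide whether the shares differ. Multi-copy peaks were absent in 17.5% of cases, but the gap to other peaks varied by score class. It was 74.5% against 70.4% of other peaks in the first class and 36.1% against 44.9% in the second. In the third class it was 5.42% against 12.1% and in the fourth 0.866% against 0.965%. By chromosome the absent share ran from 31% on chromosome 19 to 55.9% on chromosome 17, and distal peaks with H3K27Ac on the latter were absent in 53.0% of cases.

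The strongest peaks absent from Spen KO were of moderate rank. A peak at chr7:3180691-3182034, 11.5 kb from the TSS of AU018091, had scores of 54.0 and 38.7 in the WT libraries. One 1.74 kb from the TSS of Sec24d, a COPII coat gene, at chr3:122967661-122968679, scored 41.9 and 40.1. That with the tandem sequence shown above, chr3:27639709-27640838, 29.5 kb from the TSS of Fndc3b, scored 32.9 and 41.1, and one 8.31 kb from Prkaa1, which encodes a catalytic subunit of AMP-activated kinase, scored 39.3 and 33.4. They stood at percentiles 83.6, 76.9, 71.7 and 70.8 of the WT list, and all 4 lay outside coding genes with no Oct4 peak in any library.

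The 7054 peaks that were found again had much the same relative level in both genotypes. Divided by the median over all WT peaks found again, their median score was 0.68 in each WT library, against 0.69 and 0.74 in the libraries of Spen KO. The Spen KO values were higher by 0.031 on average, with an exact permutation p of 0.333, which is the smallest that 2 against 2 libraries allow. The same ratio in distal peaks with H3K27Ac was 0.63 and 0.60 in WT, against 0.69 and 0.67 in Spen KO, also at p = 0.333 by the exact permutation test.

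The strongest regions of the set were found in both genotypes. The highest score belonged to an intronic peak of Baz2b, which encodes a bromodomain protein, at chr2:59947454-59949419, 14.2 kb from the TSS. It scored 86.1 and 102 in WT, against 88.3 and 127 in Spen KO, and had no Oct4 peak. A peak 5.69 kb from the TSS of Zfp799 at chr17:32964835-32967903 scored 83.3 and 76.0 in WT, against 52.0 and 35.6 in Spen KO. That at the pseudogene Gm13169, chr4:146206178-146208238, 48.5 kb from Zfp600, scored 85.1 and 73.5 in WT, against 63.8 and 69.5 in Spen KO, with Oct4 in WT replicate 2 and Spen KO replicate 2 only. The Zfp799 and Zfp600 genes encode zinc finger proteins, and a Zfp gene was the nearest coding gene for 24 of the 362 peaks of the strongest class (6.63%) and for 84 of the 4289 of the weakest.

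The other 3 of the 6 strongest peaks lay together between Ezh2 and Pdia4 on chromosome 6, at chr6:47721728-47723254, chr6:47702142-47704465 and chr6:47707702-47709533. They scored 93.4 and 81.2, 86.0 and 87.0, and 72.8 and 95.6 in the WT libraries. In Spen KO they scored 89.7 and 79.6, 57.5 and 86.2, and 80.7 and 68.7. This stretch of 138 kb held 34 WT H3K4me3 peaks, all of them distal H3K4me3-only peaks, and 28 of the 34 were multi-copy. Within it 16 peaks of the strongest class followed each other at a median step of 4.33 kb, with 12 of the 15 steps between 4 and 5 kb and the longest, a gap between 2 blocks, at 54.2 kb. Their scores ranged from 32.8 to 93.4 in WT replicate 1, 38.0 to 95.6 in WT replicate 2, against 41.1 to 89.7 and 37.1 to 111 for the Spen KO pair, so the genotypes overlapped. The 18 weaker peaks of the stretch included 13 with no Spen KO peak. The stretch held no A box and B box pair, and the only noncoding start within 1000 bp of its strongest peak was that of the miRNA gene AC166252.1.

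**Figure D4:**
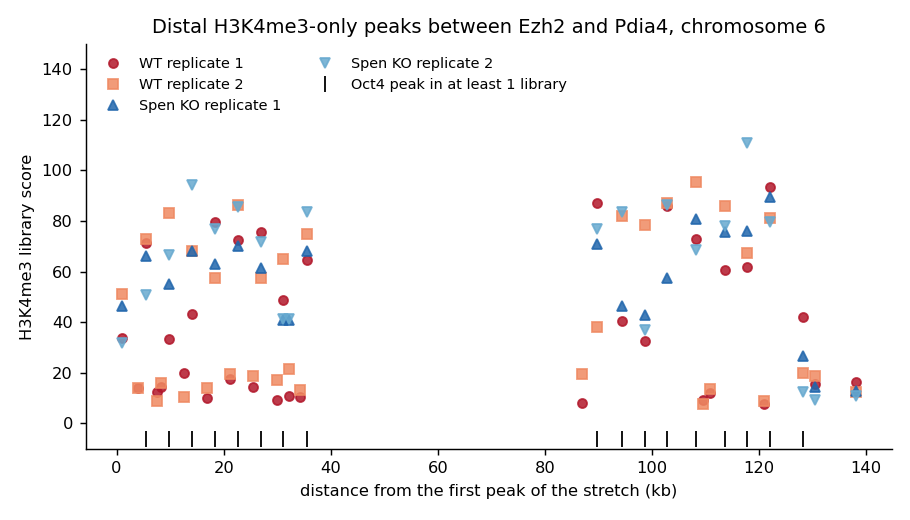
H3K4me3 library score (y axis) of the 34 distal H3K4me3-only peaks between Ezh2 and Pdia4 on chromosome 6, by distance from the first of them in kb (x axis). Circles and squares are WT replicates 1 and 2, upward and downward triangles Spen KO replicates 1 and 2 for peaks found again, and ticks near the x axis mark the 17 peaks with Oct4 in at least 1 library. Tall peaks form 2 blocks, within which they recur at a median step of 4.33 kb.

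Oct4 was rare at the distal H3K4me3-only peaks. An Oct4 peak shared a base with 48 of them (0.402%) in WT replicate 1, 285 (2.38%) in WT replicate 2. The Spen KO libraries gave 147 (1.23%) and 155 (1.30%). Over all WT H3K4me3 peaks the shares were 4.24%, 4.75%, 3.27% and 3.29%. The WT libraries stood on either side of the Spen KO libraries, so the genotypes overlapped, and the means of 1.39% ± 1.40 (SD, n = 2) and 1.26% ± 0.0473 (SD, n = 2) differed by -0.130 points with an exact permutation p of 1.00 (two-sided, smallest possible 0.333). The difference was -1.12 points without WT replicate 1 and 0.862 points without WT replicate 2, so its sign rested on which WT library was kept. In each library the share was below that of distal peaks with H3K27Ac, with differences of -1.38 points (-1.93 to -0.938) for the first WT library, -8.26 for the second, and -7.29 and -8.25 for the Spen KO libraries.

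**Figure D5:**
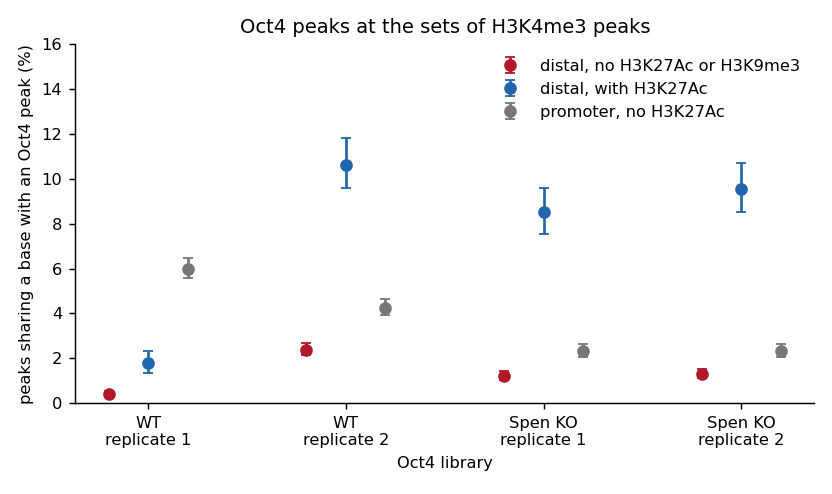
Share of each set of WT H3K4me3 peaks that shared a base with an Oct4 peak (y axis, percent) in the 4 Oct4 libraries (x axis), with 95% Wilson intervals. Distal H3K4me3-only peaks (red) range from 0.402% to 2.38% and lie below the other sets in every library, and for them the WT libraries lie on either side of the Spen KO libraries.

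In all, 433 peaks (3.62%) had Oct4 in at least 1 library, 56 (0.468%) in at least 3 and 11 in all 4. Among all WT H3K4me3 peaks 10.9% had it in at least 1 library and 1.28% in at least 3. The share in at least 3 libraries differed by -3.88 points (-4.69 to -3.18) from distal peaks with H3K27Ac. From promoter peaks without H3K27Ac (0.628%) it differed by -0.159 points (-0.355 to 0.0309), an interval that included 0. The 433 were stronger in H3K4me3 than the other distal H3K4me3-only peaks, with medians at percentiles 46.6 and 28.3. Of the 433, 37.0% were CpG-rich, against 9.43% of the others. In the same score class the CpG-rich peaks also had Oct4 more often, in 11.5% against 2.37% of cases in the second class and in 10.6% against 2.93% in the third. H3K27Ac appeared in Spen KO at 12.9% of the peaks with Oct4 and at 2.51% of those without. The octamer was within 100 bp of the summit in 6.38%, 3.48%, 3.70% and 5.39% of the Oct4 peaks at these sites, in the order of libraries above, and in 9.80%, 4.80%, 2.14% and 4.53% of those at distal peaks with H3K27Ac, with overlapping intervals in each library.

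The strongest 4 peaks with Oct4 in at least 3 libraries were CpG-rich and all multi-copy, sharing 87.7% to 98.6% of their 31-base words with other WT peaks. Those on chromosome 6 belong to the stretch described above. In the strongest score class Oct4 was in at least 1 library at 41.0% of the 61 multi-copy peaks and at 12.6% of the others. These 61 include the 16 peaks of that class in the chromosome 6 stretch, all of them with Oct4. In the middle classes the order was the reverse. Oct4 was at 0% of multi-copy peaks against 3.06% of the others in the second class. The shares were 1.04% against 4.84% in the third class and 6.49% against 8.04% in the fourth. In the weakest class the share was slightly higher at multi-copy peaks. The median Oct4 fold enrichment at distal H3K4me3-only peaks was 6.29 and 6.34 in the WT libraries, against 6.21 and 6.04 in Spen KO. The peak at chr6:47721728-47723254 had Oct4 fold enrichments of 4.85 and 5.11 in WT, against 5.04 and 3.31 in Spen KO. That at chr6:47702142-47704465 had 4.23 in WT replicate 2 and 4.62 and 3.61 in Spen KO, and that at chr6:47717353-47718918 had 5.87 in WT replicate 2 and 6.55 and 3.16 in Spen KO. On chromosome 4, a peak at the pseudogene Gm13244, chr4:145334489-145336304, had 5.18 in WT replicate 2 and 5.57 and 4.38 in Spen KO. All 16 peaks of the strongest class in the chromosome 6 stretch had Oct4 in at least 1 library, and Oct4 was found at 17 of its peaks in Spen KO replicate 1, against 2 in WT replicate 1, 7 in WT replicate 2 and 6 in Spen KO replicate 2.

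Other Oct4-bound peaks did hold an octamer near the summit, in capitals in these lines, chosen after their values were seen as examples with Oct4 in at least 3 libraries.
Near Pbx3, chr2:34105278-34105309, plus strand: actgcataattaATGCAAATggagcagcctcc
Near Gsx2, chr5:75481296-75481327, plus strand: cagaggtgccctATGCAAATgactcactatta
Near Vrk1, chr12:107413528-107413559, minus strand: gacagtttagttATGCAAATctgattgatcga
Near Qk, chr17:10634517-10634548, minus strand: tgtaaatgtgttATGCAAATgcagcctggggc
The peak 36.2 kb from the TSS of Pbx3, a homeobox gene, had Oct4 in all 4 libraries, at fold enrichments of 5.40 and 8.24 in WT, against 7.48 and 7.46 in Spen KO. Its H3K4me3 scores were 17.9 and 11.1 in WT, against 31.6 and 15.1 in Spen KO. The other peaks are named for the nearest coding gene only, at 7.84 kb from the TSS for Gsx2, 163 kb for Vrk1 and 121 kb for Qk. The peaks named for Gsx2 and Vrk1 scored 19.3 and 9.83, and 20.1 and 12.3, in the WT libraries and had no Spen KO H3K4me3 peak.

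H3K27Ac was found in Spen KO at 345 of the distal H3K4me3-only peaks, or 2.89% (2.60 to 3.20%), where 4.67% of all WT H3K4me3 peaks without WT H3K27Ac had it. The share in promoter peaks without WT H3K27Ac was 6.92%, higher by 4.04 points (3.49 to 4.60) and higher on 19 of 19 autosomes. By the same rule applied to the Spen KO lists, which gave 9853 peaks, 7.15% had H3K27Ac in WT, a reading added after the data were seen, and the WT list of H3K27Ac peaks is the longer one (13922 against 11932 peaks). Of the 4 strongest of the 345, 3 lay on chromosome 13. A peak at chr13:65340731-65344908, 15.9 kb from the TSS of Gm10775, scored 74.6 and 81.0 in WT, against 33.9 and 58.9 in Spen KO, and one at chr13:66245728-66246580, 23.6 kb from Gm16512, scored 80.1 and 63.2 in WT, against 50.5 and 63.1 in Spen KO. One at the pseudogene record named Frat1, chr19:41904182-41906844, 15.8 kb from the TSS of Frat2, scored 63.5 and 71.1 in WT, against 64.5 and 62.4 in Spen KO. The last, at chr13:62483122-62485016 near Gm3604, scored 61.8 and 56.7 in WT, against 49.0 and 35.6 in Spen KO.

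H3K9me3 was found in Spen KO at 408 of the distal H3K4me3-only peaks, or 3.41% (3.10 to 3.75%), where 1.75% of all WT H3K4me3 peaks without WT H3K9me3 had it. Of the 408, 355 (87.0%) were multi-copy and 80.6% held the YY1 motif. Among the 737 multi-copy peaks with the motif the share with H3K9me3 in Spen KO was 43.7% (40.2 to 47.3%), among the 400 multi-copy peaks without it 8.25% (5.93 to 11.4%), and among the 10410 peaks with neither 0.442%. Peaks with run 1 shown above had it in 198 of 384 cases, with run 2 in 175 of 305, with run 3 in 90 of 160 and with run 4 in 32 of 143. Without the multi-copy peaks the share over the set was 0.490%.

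The reverse was seen as well. Of the peaks that the same rule chose from the Spen KO lists, 4.23% had H3K9me3 in WT, and of the 598 multi-copy ones with the YY1 motif 37.5% (33.7 to 41.4%) did. WT H3K9me3 was also close by, within 5 kb of 52.5% of the 408 peaks and of 13.9% of the others. The H3K9me3 lists held 53745 domains over 394 Mb in WT and 70268 over 371 Mb in Spen KO. The part of repeat mapping and of list length in these shares was not tested.

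A match to the A box and B box pair was found in 79 of the distal H3K4me3-only peaks (0.661%), near the 0.623% of all autosomal WT H3K4me3 peaks. There were 98 pairs in all with 71 distinct sequences, 17 of them in at least 2 peaks. This was 7.26 pairs per Mb of peak, against 5.59 per Mb in distal peaks with H3K27Ac, 1.85 in promoter peaks without it and 2.17 over the autosomes. The search was added after the data were seen, the boxes had to stand 15 to 75 bp apart, and the annotation used holds no nuclear transfer RNA genes to compare with. The 79 peaks were of high CpG ratio (median 0.618) but low GC (47.2%), were wide (median 1926 bp) and stood at a median percentile of 51.4. Of the 79, 16.5% (9.88 to 26.1%) were absent from Spen KO. The share was 41.0% over all distal H3K4me3-only peaks and 23.2% over all WT H3K4me3 peaks. The weakest score class, where absence was most frequent, held 9 of the 79, and no comparison at matched score was made. Oct4 was at 1 of the 79, against 3.62% of all distal H3K4me3-only peaks and 10.9% of all WT H3K4me3 peaks. The share of distal peaks with H3K27Ac that held a pair was 0.684%, and the difference of -0.0237 points (-0.416 to 0.267) was not detected. Of the 79, 27 lay on chromosome 13. The peak with pair 1 scored 51.0 and 56.7 in WT, against 27.8 and 26.3 in Spen KO, that with pair 2 scored 37.6 and 40.1 in WT, against 22.3 and 34.0 in Spen KO, that with pair 3 scored 39.3 and 38.9 in WT, against 33.0 and 24.9 in Spen KO, and that with pair 4 scored 46.4 and 30.3 in WT, against 45.8 and 24.0 in Spen KO.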

How the data were processed

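The ChIP-seq peak lists of both genotypes were used as deposited. Per the study's methods, the authors aligned read pairs to mm9 with Bowtie2, kept concordant pairs that mapped once, and dropped duplicates (Picard); MACS2 then called peaks over input at a q-value cutoff of 0.01. The deposited H3K4me3 and H3K27Ac lists hold a score for each library and were filtered by the authors at an irreproducible discovery rate under 0.05; which MACS2 column gave the score is not stated. The deposited H3K9me3 domains are joined 200 bp windows with a score and a p-value, and how they were called is not given in the sources used here. The deposited Oct4 lists give each peak's fold enrichment and −log10 p and q, with no filter across libraries. The submitters' processing notes also name DESeq2 and bedtools, which were not needed here.

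The selection, the sets beside it, and the gene and marker lists were chosen with earlier results of these data known. Peaks were compared with GENCODE vM1 and the mm9 sequence in Python 3 (numpy, pandas), with 1 shared base as overlap and the nearest base of the peak as distance; coordinates count from 1. A protein-coding TSS was the start of any transcript of a protein-coding gene. Shares were given with Wilson intervals and differences with Newcombe intervals at the 95% level. Differences weighted by score class had a 95% interval combined over the classes. For Oct4 and for relative scores an exact two-sided permutation test over the 2 WT and 2 Spen KO libraries was used. Interval functions were tested on simulated data. Named regions were the 6 of highest mean score, then the 4 of highest score each with a long noncoding start, with Oct4 in at least 3 libraries, with no Spen KO peak and with H3K27Ac in Spen KO; antisense genes carry the type processed transcript in this annotation. The nearest 2 peaks on either side of each limit were also named. The alternatives tried are given at the end. No column of other samples was used. Depth is unknown.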

Additional observations from a re-analysis of the deposited data

How the results depend on the processing

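Of the alternatives, 3 turned a sign, 3 took an interval across 0, and 47 moved a share or median outside the 95% interval of its main value or the number of peaks by over 1.5 times. The excess absent share over distal peaks with H3K27Ac (3.62 points) was 1.74 (-0.311 to 3.77) over 2000 bp from a TSS, 0.534 over 5000 bp, 0.372 with lists of equal length, -2.29 in the stronger 50%, and 4.05 when weighted by score class. The Oct4 difference (-0.130 points) was 0.0376 with Oct4 lists of equal length, and -1.12 to 0.862 without 1 library. With a replicate block it was -0.130, at an exact sign-flip p of 1.00 (smallest possible 0.5); same-numbered libraries share only a number.

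With the TSS of the gene record, the absent share was 39.0%, the median score percentile 30.6, the gene body share 62.2%, the share near a promoter peak 15.4%, H3K9me3 in Spen KO 2.94% and the CpG ratio 0.379; with protein-coding transcripts alone, the gene body share was 58.1%. Over 2000 bp from a TSS the same 6 values were 39.1%, 29.7, 52.4%, 11.1%, 3.76% and 0.382, and over 5000 bp 37.8%, 31, 46.5%, 3.37%, 4.52% and 0.392, with 6.86% at noncoding starts. With no WT mark within 1000 bp, 16.6% were near a promoter peak, 2.32% had H3K27Ac and 2.87% H3K9me3 in Spen KO, and the ratio was 0.378. In the stronger 50% (2594 peaks) the absent share was 2.47%, the percentile 62.9, noncoding starts 10.9%, gene bodies 45.2%, near a promoter peak 10.3%, H3K9me3 7.90% and the ratio 0.521. With peaks within 1000 bp merged, the absent share was 38.7%, the percentile 30.8 and the ratio 0.378. At 50% overlap H3K9me3 was 2.81%; with gaps of up to 1000 bp the absent share was 30.3%, H3K27Ac 5.81% and H3K9me3 5.75%; with lists of equal length the absent share was 32.0%. With the noncoding start inside the peak the share was 4.33%, and promoter peaks within 1000 and 5000 bp were near 13.1% and 27.3%. Without multi-copy peaks, added after the data were seen, the values were 43.5% absent, percentile 26.7, H3K9me3 0.490% and ratio 0.359. Most of these changes keep other peaks, and the cause of the rest was not tested.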

Other observations

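Peaks of this kind also gathered in a few stretches besides the array on chromosome 6, found by counting in windows of 200 kb after the data were seen. On chromosome 13, a stretch of 122 kb at Trim27 held 20 of them, 10 with an A box and B box pair, and 2 were absent from Spen KO. A stretch of 142 kb on the same chromosome, with Zfp184 and 5 Hist1 histone genes, held 25, of which 7 had a pair and 6 were absent. One of 195 kb with Zfp322a, Abt1 and butyrophilin genes held 20, of which 5 had a pair and 5 were absent. Other stretches as dense held no pair. One of 185 kb on chromosome 18 with Pcdhgc5 held 21, of which 5 were absent. One of 156 kb on chromosome 5 with Msi1 and Pxn held 20, of which 11 were absent. A second stretch on chromosome 6, chr6:114452292-114586880, with no protein-coding gene, held 23, of which 20 were absent from Spen KO, and its median score stood at percentile 13. None of the 23 had Oct4 or was in the strongest class. Beside these counts, 41.0% of all distal H3K4me3-only peaks and 23.2% of all WT H3K4me3 peaks were absent from Spen KO. Among the distal H3K4me3-only peaks at percentiles 10 to 15 of the WT list, 66.8% were absent. In all, 3696 of the 11955 peaks (30.9%) had another of the same kind within 5000 bp.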
